A study of Mus musculus with 30 samples.

Results

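Colon antimicrobial and host defense is represented here by 10 genes, followed through 30 RNA-seq libraries, among 46078 genes in the count table. They were 2610528A11Rik, which encodes the ligand of the receptor Gpr15, then Gpr15 itself, Reg3b, Reg3g, Retnlb, Ang4, Itln1, Lypd8, Lcn2 and Sprr2a3. All 10 were found by name and gene identifier. The genes were chosen by function, with their measured levels and differences in these same libraries already known, so the values below describe them, and none of the p-values is independent support. The libraries came from whole colon tissue of C57BL/6J mice (distal colon by the study's text), 6 animals in each of 5 groups: females on control diet (CD F), males on control diet (CD M), females on high-fat diet (HFD F), males on high-fat diet (HFD M), and males on high-fat diet given 17β-estradiol (HFD+E2 M). Feeding started at 5 to 6 weeks of age and lasted 13 weeks, with 10% of energy from fat in CD and 60% in HFD. Every animal received 9 intraperitoneal injections over the last 3 weeks, either 0.5 mg/kg estradiol in HFD+E2 M or the solvent (PEG400, DMSO and water) in the other 4 groups. The females kept their ovaries, and neither the estrous cycle nor food intake was monitored, which limits the female groups as a model of 1 hormonal state.

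The colon mucosa keeps bacteria away from its surface partly through secreted proteins. Epithelial cells, goblet cells included, release mucins, C-type lectins of the Reg3 family, the resistin-like protein Retnlb, the ribonuclease Ang4 and the glycan-binding lectin Itln1. Colonocytes carry Lypd8, a surface-anchored protein that binds bacterial flagella, and inflamed epithelium and neutrophils make Lcn2, which withholds iron by binding bacterial siderophores. The Gpr15 ligand is a small secreted protein of colon and skin epithelium with antimicrobial activity, while Gpr15 is the receptor that guides T cells to the large intestine. Sprr2a proteins are small proline-rich proteins of barrier epithelia that can kill Gram-positive bacteria.

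Sprr2a3 belongs to a cluster of near-identical copies on chromosome 3, and the sequences are shown because they set how well short reads can be assigned to it. The coding sequences of Sprr2a1 (chr3:92219092-92219340, GRCm38, plus strand), Sprr2a2 (chr3:92253905-92254153) and Sprr2a3 (chr3:92288588-92288836), read from GENCODE transcripts without the stop codon, were each 249 bases long. Sprr2a1 and Sprr2a2 were identical over this length. Sprr2a3 differed from them by G63A, G159T and A192T, with the Sprr2a1 base first and positions counted from 1 at the start codon, all at the third position of a codon (98.8% identity). The capitals mark these 3 positions.
Sprr2a1 and Sprr2a2: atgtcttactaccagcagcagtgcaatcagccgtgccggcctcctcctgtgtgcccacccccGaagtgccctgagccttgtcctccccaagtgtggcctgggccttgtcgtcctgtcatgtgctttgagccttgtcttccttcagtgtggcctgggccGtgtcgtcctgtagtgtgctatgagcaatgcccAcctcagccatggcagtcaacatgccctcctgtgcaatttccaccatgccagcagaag
Sprr2a3: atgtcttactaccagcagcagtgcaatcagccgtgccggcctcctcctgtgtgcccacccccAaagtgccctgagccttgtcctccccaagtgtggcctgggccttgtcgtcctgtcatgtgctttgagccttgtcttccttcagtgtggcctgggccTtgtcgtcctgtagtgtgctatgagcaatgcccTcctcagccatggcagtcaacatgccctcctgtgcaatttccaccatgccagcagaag
At the sequenced read length of 51 bases, 64 of the 199 windows of the Sprr2a3 coding sequence (32.2%) also occurred in another copy, against 199 of 199 in Sprr2a1 and in Sprr2a2. Along the longer annotated Sprr2a3 transcript the shared portion was 60.5% of windows. A level of Sprr2a3 is therefore uncertain to the extent that reads were split or dropped between copies.

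The gene of the Gpr15 ligand lies on chromosome 14 (chr14:37102140-37114022, GRCm38, minus strand). Its promoter is shown because this gene was the only one of the 10 past the adjusted threshold in any comparison. The annotated gene has 2 transcripts and reaches further upstream than the RefSeq start, so the window shown lies inside its span. The 250 bases before the RefSeq start (chr14:37110102-37110351, GRCm38.p6, minus strand) are given with a TATA box in capitals, 27 bases before the start.
2610528A11Rik promoter: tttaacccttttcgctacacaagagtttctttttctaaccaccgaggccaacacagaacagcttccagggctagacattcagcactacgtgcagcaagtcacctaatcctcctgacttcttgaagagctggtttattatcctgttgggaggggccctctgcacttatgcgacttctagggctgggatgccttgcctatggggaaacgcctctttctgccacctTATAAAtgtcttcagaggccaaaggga
In all, 4 motifs were searched on both strands of this window and of all 32851 RefSeq promoters of the same length. TATAAA occurred in 12.4% of promoters, and among the 9 genes with a promoter in the table it occurred in 2610528A11Rik, Reg3b and Reg3g. The estrogen response half-site AGGTCA (14% of promoters) and the E-box CACGTG (6.02%) had no match in any of the 9 genes, which says only that these letters are not in the window. The STAT site TTCNNNGAA (7.02%) matched in Ang4, Reg3b and Sprr2a3.

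The libraries held between 8667177 and 17243712 counts on genes (median 11530915), with a mean of 33.2% ± 3.01 (SD, n = 30) on mitochondrial genes. Intestinal epithelium was present in every library: the 12 epithelial markers summed to means between 5020 and 5397 TPM (a transcript level scaled to gene length and library total) in the 5 groups, led by Lgals4. Hoxb13, a gene of the distal gut, averaged 121 TPM. All 6 Paneth cell defensins found in the files were listed at 0.
A set of 6 libraries stood apart, 4 of HFD F (replicates 1, 3, 4 and 5) and 2 of HFD M (replicates 2 and 4). In these, 22 markers of stratified squamous epithelium, such as Krt13, summed to over 100 TPM and up to 1866 TPM, against at most 25.5 TPM in the other 24. No such library was in CD F, CD M or HFD+E2 M, so the fitted values of the 10 genes in comparisons that use HFD F or HFD M are given below with and without them.

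The 10 genes fell into abundant and near-silent members. Lypd8 had a mean of 6218 TPM over the 30 libraries, rank 12 of 46078 genes, and carried 91.4% of the summed TPM of the 10. The Gpr15 ligand gene followed with 338 TPM (rank 148), and Sprr2a3 with 248 TPM (rank 201). These 3 genes had counts in all 30 libraries.
Lcn2 averaged 0.999 TPM, with 0 to 23 counts in a library. The remaining 6 genes averaged under 0.3 TPM each. In total over the 30 libraries Itln1 had 114 counts, Ang4 had 58, Reg3g had 35, Gpr15 had 32, Reg3b had 12 and Retnlb had 3.
Only 2610528A11Rik, Lypd8 and Sprr2a3 passed the filter on low counts in the 2-group comparisons, and Lcn2 joined them in the test of sex by diet. The other genes were compared one at a time on log2 CPM by exact permutation tests. Here CPM alone is counts over the library total, and log2 CPM is further scaled by edgeR's TMM factors, with a prior count of 2.

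**Figure D1:**
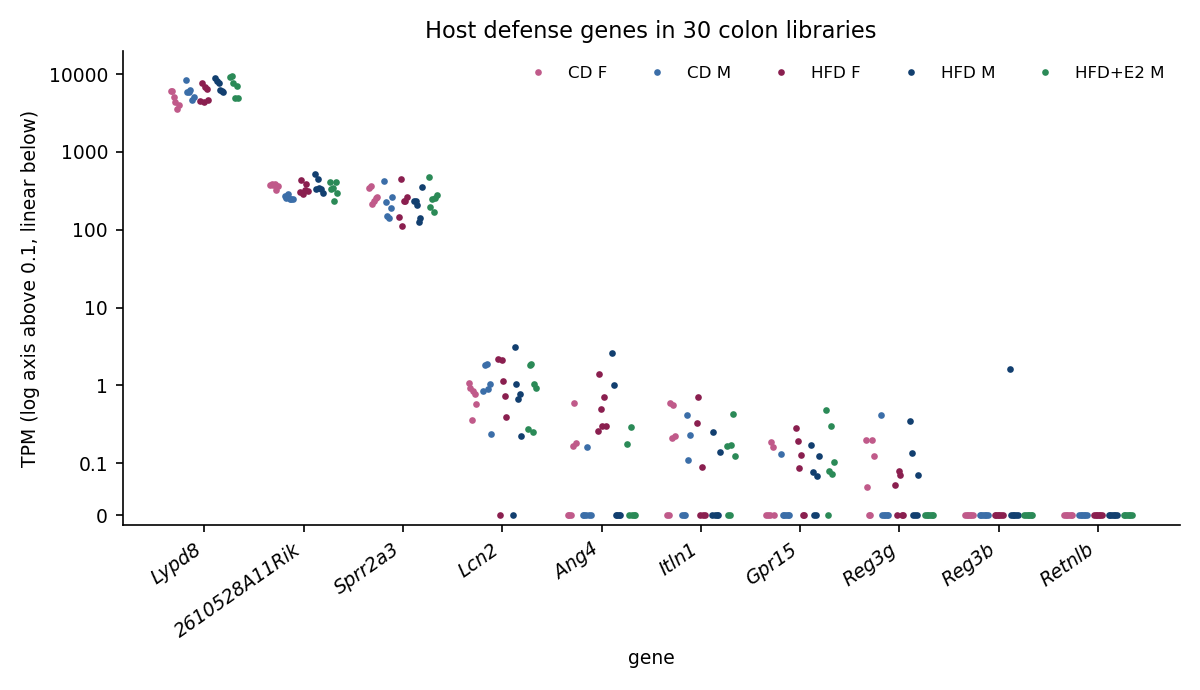
Level of each gene in every library, on a TPM axis that is logarithmic above 0.1 and linear below, with 1 point per animal and 1 colour per group. The upper 3 genes, 2610528A11Rik, Lypd8 and Sprr2a3, lie above 100 TPM in all 30 libraries, and the other 7 stay below 4 TPM.

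The Gpr15 ligand gene was higher in females than in males on control diet. In CD F its lowest, median and highest values were 325, 376 and 390 TPM (mean 370 ± 23.4, SD, n = 6). In CD M they were 246, 251 and 291 TPM (mean 260 ± 18.5, SD, n = 6), so every CD F animal was above every CD M animal. On counts the difference was 1.55-fold (95% interval 1.38 to 1.74, log2 fold change 0.64, SE 0.08, edgeR adjusted p = 0.000439), rank 16 of 14922 genes by p.
With limma on TPM values the log2 difference was 0.51. Among all genes tested in CD F vs CD M, 2.74% passed the adjusted threshold (adjusted p under 0.05 and a log2 fold change over 0.4) and 9.15% the unadjusted one. Of the 3 members tested, 2610528A11Rik passed the adjusted threshold, and 2610528A11Rik and Sprr2a3 passed the unadjusted one, both higher in females. Since the tissue was sequenced in bulk, more cells of a type and more RNA per cell cannot be told apart, here or below.
Cell markers also differed in this comparison. All 12 smooth muscle markers were lower in CD F, 7 of them past the adjusted threshold, with a median log2 fold change of -0.63. Their summed level was 4201 ± 695 TPM in CD F and 7078 ± 1419 TPM in CD M (SD, n = 6), led by Acta2. With the smooth muscle marker score as a covariate, the log2 fold change of 2610528A11Rik was 0.78 (SE 0.11, edgeR adjusted p = 0.000761). The score itself differed between the sexes, so its part in the difference cannot be told apart from that of sex.
Goblet cell markers moved the other way: all 13 tested were higher in CD F, with Muc2, Sytl2 and Fcgbp past the adjusted threshold and a median log2 fold change of 0.35. All 11 B cell markers were also higher in CD F, 5 of them past the unadjusted threshold only, with a median log2 fold change of 1.32 and a summed level of 39.1 ± 23.0 TPM against 14.8 ± 21.5 TPM in CD M (SD, n = 6), led by Cr2. The part of goblet and B cells in the ligand difference was not tested. None of the 11 tested markers shared by all intestinal epithelium passed either threshold, and with their score as a covariate the log2 fold change of 2610528A11Rik was 0.64 (SE 0.08, edgeR adjusted p = 0.000923).

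On high-fat diet the sexes overlapped for this gene. HFD F ranged from 290 to 438 TPM with a median of 321, and HFD M from 296 to 516 TPM with a median of 343, so the groups overlapped. The log2 fold change of HFD F over HFD M was -0.07 (95% interval -0.36 to 0.23, edgeR adjusted p = 0.942), and -0.03 (SE 0.22) without the 6 libraries rich in squamous markers. None of the 3 members tested passed either threshold, where 0.0988% of all genes passed the adjusted and 3.09% the unadjusted one.
Males had higher values on high-fat diet than on control diet. HFD M had a mean of 379 ± 84.1 TPM against 260 ± 18.5 TPM in CD M (SD, n = 6), and the lowest HFD M animal, at 296 TPM, was just above the highest CD M animal, at 291 TPM. The groups were also apart on CPM (lowest HFD M 164, highest CD M 155), but on TMM-scaled log2 CPM they overlapped, with 5 of 6 HFD M animals above the highest CD M animal.
The count-based fold was 1.41 (95% interval 1.2 to 1.67, log2 fold change 0.50, SE 0.11), which passed the unadjusted threshold, as did 2.9% of all genes, but not the adjusted one (edgeR adjusted p = 0.333). At the adjusted threshold 0% of the 14991 genes passed with edgeR, while DESeq2 gave 2610528A11Rik an adjusted p of 0.0325. Without the 2 HFD M libraries rich in squamous markers the log2 fold change was 0.56 (SE 0.13, edgeR adjusted p = 0.374). In the same comparison all 12 smooth muscle markers had lower values in HFD M (median log2 fold change -0.294, Lmod1 past the unadjusted threshold only). All 10 tested B cell markers had higher values (median 0.675, none past either threshold). The cause of the ligand difference was not tested.
In females the diet difference was small. HFD F averaged 344 ± 56.5 TPM and CD F 370 ± 23.4 TPM (SD, n = 6), with a log2 fold change of -0.20 (95% interval -0.43 to 0.04, edgeR adjusted p = 0.973). Without the 4 HFD F libraries rich in squamous markers it was -0.08 (SE 0.12). No member tested passed either threshold in HFD F vs CD F, where 0.0199% of all genes passed the adjusted and 3.67% the unadjusted one.
The sex-by-diet interaction, which tests whether the diet difference in females departs from that in males, was -0.70 on the log2 scale for 2610528A11Rik (SE 0.16, 95% interval -1.04 to -0.37, edgeR adjusted p = 0.319), rank 9 of 15800 genes by p. Of the 4 members tested and of all genes tested, 0% passed the adjusted threshold with edgeR, and the adjusted p of 2610528A11Rik was 0.0517 with DESeq2. At the unadjusted threshold 5.18% of all genes passed, and of the 4 members 2610528A11Rik did, downward. Without the 6 libraries rich in squamous markers its interaction was -0.66 (SE 0.19, edgeR adjusted p = 1). With the squamous marker score as a covariate the interaction was -0.56 (SE 0.16, edgeR adjusted p = 1). Other cell markers also had interaction values of 1 sign. All 12 smooth muscle markers were above 0 (median 0.512), with Synm, Acta2 and Lmod1 past the unadjusted threshold only. All 11 B cell markers were below 0 (median -1.161), none past either threshold. The cause of the ligand interaction was not tested. The comparisons of sex and of diet share control animals, so their values stand side by side and are not separate evidence.

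No difference of the ligand gene with estradiol was found in HFD males. HFD+E2 M spread from 233 to 415 TPM with a median of 338, overlapping the HFD M range of 296 to 516 TPM. The log2 fold change was -0.003 (95% interval -0.31 to 0.30, edgeR adjusted p = 0.996), so a change of more than 1.23-fold upward or to less than 0.809-fold lay outside the interval. Without the 2 HFD M libraries rich in squamous markers the log2 fold change was -0.08 (SE 0.17). None of the 3 members tested passed either threshold in HFD+E2 M vs HFD M, where 0.00666% of all genes passed the adjusted and 5.87% the unadjusted one.
Animals of the 2 CD groups lay closer together than those of the HFD groups for this gene, a difference in spread that was not tested. On plain CPM the means were 223 ± 8.96 in CD F, 143 ± 6.49 in CD M, 195 ± 31.2 in HFD F, 196 ± 27.8 in HFD M and 203 ± 32.3 in HFD+E2 M (SD, n = 6). Within-group SDs of TMM-scaled log2 CPM were 0.109 in CD F and 0.105 in CD M, against 0.27 in HFD F, 0.28 in HFD M and 0.29 in HFD+E2 M.
Gpr15, the receptor, was near the limit of detection. It had 4 counts over the 6 CD F libraries, 2 in CD M, 8 in HFD F, 5 in HFD M and 13 in HFD+E2 M, and no count in 14 of 30 libraries. T cell markers were also low, with 3 of 13 above 1 TPM and group means of the summed markers between 3.79 and 7.34 TPM, led by Cd2. In CD F vs CD M all 5 tested T cell markers were higher in females, with Cd4 and Cd2 among those past the unadjusted threshold only. Neither a sex nor a diet nor an estradiol difference of Gpr15 was detectable at this depth.

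**Figure D2:**
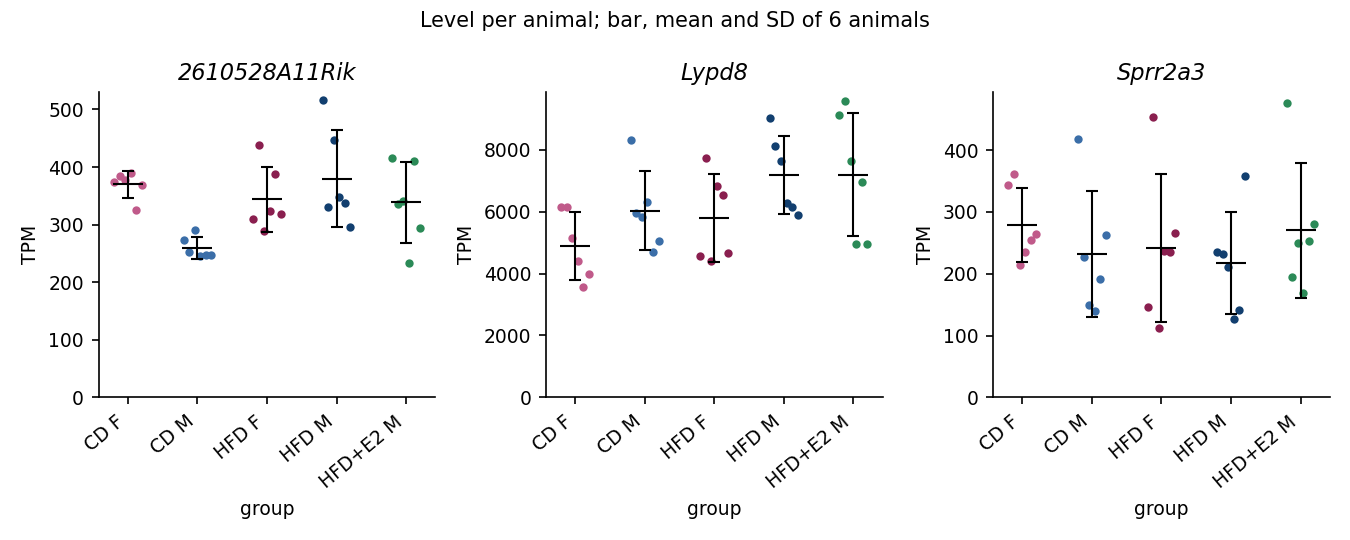
TPM of 2610528A11Rik, Lypd8 and Sprr2a3 per animal in the 5 groups, with the mean and SD of 6 animals as black bars on axes that start at 0. For 2610528A11Rik all CD F points lie above all CD M points, whereas the groups of Lypd8 and Sprr2a3 overlap.

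Lypd8, the flagellin-binding surface protein of colonocytes, was among the most abundant colon transcripts in all groups. Its group means were 4900 ± 1095 TPM in CD F, 6026 ± 1272 TPM in CD M, 5787 ± 1415 TPM in HFD F, 7183 ± 1269 TPM in HFD M and 7195 ± 1980 TPM in HFD+E2 M (SD, n = 6). The lowest animal was in CD F, at 3566 TPM, and the highest in HFD+E2 M, at 9560 TPM. All groups overlapped.
Female means were below male means under both diets, but the log2 fold change was -0.18 on control diet (95% interval -0.43 to 0.06, edgeR adjusted p = 0.515) and -0.23 on high-fat diet (95% interval -0.59 to 0.13, edgeR adjusted p = 0.872). Neither difference exceeded the spread between animals by this test. The values for diet were 0.18 in females (95% interval -0.16 to 0.51) and 0.22 in males (95% interval -0.04 to 0.49), and that for estradiol was 0.19 (95% interval -0.21 to 0.59). The intervals leave room for changes up to 1.5-fold upward with estradiol. Without the libraries rich in squamous markers the Lypd8 values were -0.17 for sex on high-fat diet (SE 0.25), 0.25 for diet in females (SE 0.17), 0.21 for diet in males (SE 0.15) and 0.19 for estradiol (SE 0.22). The sex-by-diet interaction of Lypd8 was -0.05 (SE 0.21), and 0.02 (SE 0.22) without them.
Surface colonocyte markers, the cells that carry Lypd8, had lower values in CD F than in CD M: 6 of 8 tested were lower, with Car4, Slc26a3 and Car1 past the unadjusted threshold only. Their summed level was 1082 ± 183 TPM in CD F and 1589 ± 478 TPM in CD M (SD, n = 6). In HFD M vs CD M the same list was also lower for 6 of 8 (median log2 fold change -0.35, Cyp2c55 and Car1 past the unadjusted threshold only), while the Lypd8 value was 0.22. The part of these cells in the Lypd8 values was not tested.

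Sprr2a3 varied more between animals than the other abundant members. Its pooled within-group SD of log2 CPM was 0.50, higher than in 81.9% of 16060 genes, compared with 0.31 for Lypd8 and 0.23 for 2610528A11Rik. In CD F the lowest, median and highest values were 215, 260 and 361 TPM, and in CD M they were 141, 210 and 418 TPM, with overlap.
The count-based log2 fold change of CD F over CD M was 0.43 (SE 0.17, 95% interval 0.08 to 0.78, edgeR adjusted p = 0.21), past the unadjusted threshold only. In 2 settings it passed the adjusted one: without CD M replicate 1, the animal at 418 TPM, it was 0.56 (edgeR adjusted p = 0.0445), and with the replicate number as a block 0.47 (edgeR adjusted p = 0.014). With the smooth muscle marker score as a covariate it turned to -0.06 (SE 0.18, edgeR adjusted p = 0.882). This score differed between the sexes, so its part cannot be told apart from that of sex.
The libraries with the most smooth muscle signal had low Sprr2a3. After removal of group means, Sprr2a3 and the smooth muscle score had a Pearson r of -0.64 over 30 libraries, a description of libraries that share one tissue sampling and one total. Other marker lists correlated with Sprr2a3 to a like degree: r was 0.64 for Paneth and deep crypt secretory cells, 0.59 for B cells, 0.59 for surface colonocytes and 0.47 for goblet cells. CD M replicates 3 and 4, with 8317 and 8799 TPM of smooth muscle markers, had 150 and 141 TPM of Sprr2a3. CD M replicates 1 and 6, with 5658 and 5285 TPM of these markers, had 418 and 263 TPM, and replicates 2 and 5, with 7600 and 6809 TPM, had 227 and 192 TPM.

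**Figure D3:**
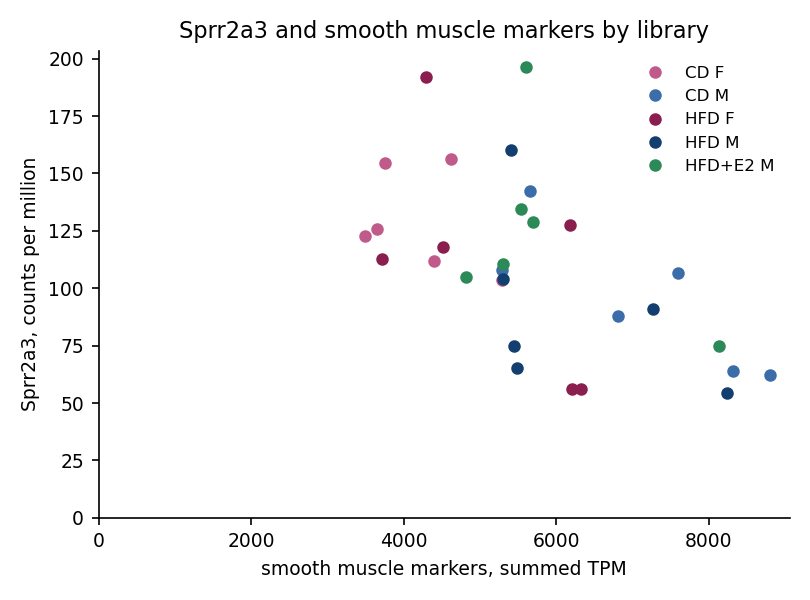
Sprr2a3 in CPM against the summed TPM of 12 smooth muscle markers, 1 point per library and 1 colour per group. The 4 libraries with the most smooth muscle marker signal, from 8142 to 8799 TPM, lie between 54.2 and 74.8 CPM of Sprr2a3.

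Diet and estradiol gave wide intervals for Sprr2a3. HFD F ranged from 112 to 454 TPM, HFD M from 126 to 358 TPM and HFD+E2 M from 168 to 476 TPM. The 2 HFD F animals below 150 TPM, replicates 1 and 3, were among the libraries rich in squamous markers. The log2 fold change was -0.22 for diet in females (95% interval -0.79 to 0.36), and 0.25 without those 4 libraries (SE 0.17, edgeR adjusted p = 1).
It was -0.03 for diet in males (95% interval -0.55 to 0.49) and 0.24 for sex on high-fat diet (95% interval -0.47 to 0.95). Without the libraries rich in squamous markers these were 0.04 (SE 0.25) and 0.62 (SE 0.29, edgeR adjusted p = 1). For estradiol in HFD males it was 0.42 (95% interval -0.10 to 0.94, edgeR adjusted p = 0.525), and 0.34 (SE 0.25) without the 2 HFD M libraries. The sex-by-diet interaction was -0.19 (SE 0.39), and its sign turned without the 6 libraries (0.19, SE 0.35), with the squamous marker score (0.01, SE 0.37) and with the smooth muscle score (0.18, SE 0.35).
The order of the 3 copies differed between the measures, which come from different tools, and the reason was not tested. By counts Sprr2a3 was the largest of the 3, with 37864 counts in total against 9018 for Sprr2a2 and 5005 for Sprr2a1, but by TPM it was the smallest, with 248 TPM against 2272 TPM for Sprr2a2 and 730 TPM for Sprr2a1. With the counts of the 3 copies summed, the log2 fold change of CD F over CD M was 0.34 (SE 0.15, edgeR adjusted p = 0.308).

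**Figure D4:**
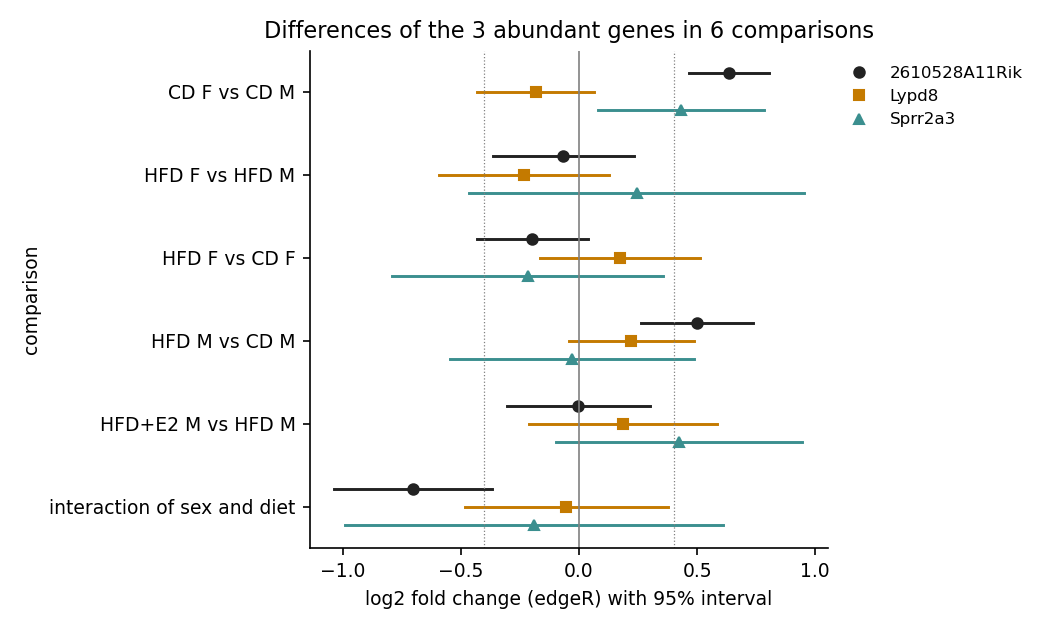
Log2 fold change (edgeR, counts) of 2610528A11Rik, Lypd8 and Sprr2a3 in 5 comparisons and the sex-by-diet interaction, with 95% intervals as lines and dotted lines at a log2 change of 0.4 in either direction. The interval of 2610528A11Rik in CD F vs CD M, 0.47 to 0.80, lies wholly above the dotted line.

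Transcripts of the secreted lectins, Retnlb and Ang4 were close to absent. Retnlb was listed at 0 TPM in all 30 libraries, with 1 count in CD F and 2 in CD M. Reg3b had counts in 2 libraries only, 10 in HFD M replicate 1 and 2 in HFD F replicate 2, and its TPM was 1.61 in the former. In the 3 groups with no Reg3b count, a total of 0 allows up to 0.0468 CPM in CD F, 0.0414 CPM in CD M and 0.0417 CPM in HFD+E2 M (3 counts over the group, counting error only).
The same HFD M animal held 5 counts of Reg3g and 15 of Ang4, the highest Ang4 count of all libraries. Reg3g, whose product targets Gram-positive bacteria, had 10, 7, 6, 10 and 2 counts in CD F, CD M, HFD F, HFD M and HFD+E2 M. No difference of Reg3g was detectable at this depth.
Ang4 had at least 2 counts in every HFD F library and 24 in the group, against 7 in CD F, 3 in CD M, 20 in HFD M and 4 in HFD+E2 M. Its log2 CPM difference of HFD F over CD F was 0.81, with a two-sided exact permutation p of 0.0563. This was the lowest of 35 exact permutation tests on the 7 low genes over the 5 comparisons, of which 0 gave a p under 0.05, with 0.00216 as the smallest p that 6 against 6 animals allow. In HFD F, replicate 2, which lacked squamous markers, held 11 of the 24 counts, and the 4 squamous-rich libraries had 2, 3, 2 and 4 counts.
Itln1 was the steadiest of these lectins, with counts in 28 of 30 libraries but no more than 10 in any. It had 32 counts in CD F, 21 in CD M, 23 in HFD F, 15 in HFD M and 23 in HFD+E2 M.
In contrast, the goblet cell marker Muc2 averaged 2088 TPM, and goblet cell markers summed to group means between 4288 and 5481 TPM. Reg3b, Reg3g, Retnlb, Ang4 and Itln1 were low in libraries where goblet cell transcripts were abundant. Of 10 listed Paneth and deep crypt secretory cell markers, 7 were at 0 in every library (Mmp7 and 6 defensins), and Reg4 was the most abundant with 80.4 TPM.

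Lcn2 stayed low in every group, on both diets and with estradiol. Its group means were 0.758 ± 0.257 TPM in CD F, 1.13 ± 0.632 TPM in CD M, 1.1 ± 0.910 TPM in HFD F, 0.970 ± 1.12 TPM in HFD M and 1.04 ± 0.724 TPM in HFD+E2 M (SD, n = 6). The highest animal, HFD M replicate 2, had 23 counts and 3.12 TPM, and was one of the 6 libraries rich in squamous markers. In HFD F the squamous-rich replicates 1 and 3 had 15 and 18 counts, replicates 4 and 5 had 12 and 5, and HFD M replicate 4 had 7. HFD F replicates 2 and 6, without these markers, had 0 and 6.
By TPM the 3 highest libraries, at 3.12, 2.19 and 2.14 TPM, were all rich in squamous markers, and the highest of the other 24 had 1.9 TPM. With group means removed, the Pearson r of Lcn2 over 30 libraries was 0.61 with the squamous marker score and 0.53 with the neutrophil marker score, the largest of 12 marker lists, as a description. Neutrophil markers, the other common source of Lcn2, were above 1 TPM for 4 of 13 genes, were led by Ly6g at 76.7 TPM, and had Camp and Elane at 0 in every library. Their summed level was 57.2 ± 22.6 TPM in CD F and 157 ± 117 TPM in HFD F (SD, n = 6), where the squamous-rich replicates 1 and 3 were highest with 372 and 207 TPM. The part of either cell type in the Lcn2 values was not tested. The sex-by-diet interaction of Lcn2 was 0.76 on the log2 scale (SE 0.75, 95% interval -0.79 to 2.30, edgeR adjusted p = 0.848). Its sign turned without the 6 libraries rich in squamous markers (-0.16, SE 0.88) and with the squamous marker score as a covariate (-0.30, SE 0.64), and with 1 library left out it lay between 0.44 and 1.36, the latter without HFD M replicate 2.

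Across animals the abundant members moved together to differing degrees. After removal of group means, 2610528A11Rik and Lypd8 had a Pearson r of 0.64 over 30 libraries, Lypd8 and Sprr2a3 0.44, and 2610528A11Rik and Sprr2a3 0.30. Sprr2a3 and its copy Sprr2a2, whose sequences are near-identical, had 0.85, and how far shared reads contribute to this was not tested. These are descriptions of libraries that share tissue make-up and depth.
Among 13711 other genes with a mean of at least 1 TPM, those most like 2610528A11Rik over 30 libraries included Tgm3 (r = 0.77), a transglutaminase of barrier epithelia, and Dpp4 (r = 0.76), a brush border peptidase. With group means removed their r was 0.67 and 0.67. Lypd8 was most like Gabarap (0.88), Ctsb (0.88) and Lamp1 (0.84), which serve autophagy and lysosomes, and these were 0.87, 0.86 and 0.81 with group means removed.
Sprr2a3 was most like Sprr2a2 (0.82), Asb11 (0.78) and Dpp7 (0.75), and Lcn2 most like Cdk16 (0.74), Mal (0.70) and S100a11 (0.70).

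Other host defense genes were compared in the same way. Of 49 genes chosen outside the 10, 48 were found in the files, 29 averaged above 1 TPM, with Sprr2a2 the most abundant, and 9 were at 0 in every library, among them Reg1, Reg3a and Camp. In CD F vs CD M, 23 were tested. Gsdmc3, a gasdermin, and Saa1, an acute phase protein that the gut epithelium also makes, were higher in females past the adjusted threshold, which 2.74% of all genes passed, and 19 of the 23 had higher values in females (median log2 fold change 0.24 against 0.01 over all genes).
Saa1 was 724 ± 126 TPM in CD F and 540 ± 135 TPM in CD M (SD, n = 6), with a log2 fold change of 0.54 (SE 0.14, edgeR adjusted p = 0.0466). Gsdmc3 was 354 ± 55.6 TPM in CD F and 304 ± 41.9 TPM in CD M, with a log2 fold change of 0.56 (SE 0.12, edgeR adjusted p = 0.019). Both groups overlapped in TPM for both genes. The difference of Gsdmc3 was larger on counts than between its TPM means, and the reason was not tested.
The trefoil peptide Tff3, the chemokine Ccl20 and lysozyme Lyz1 passed only the unadjusted threshold upward, and the lipopolysaccharide-binding protein Lbp downward. With Gsdmc3 and Saa1 included, 5 of the 23 passed it upward and 1 downward, against 9.15% of all genes in either direction. Ccl20 had 7.87 ± 3.51 TPM in CD F and 2.94 ± 2.55 TPM in CD M (SD, n = 6).
No gene of this list passed the adjusted threshold in the other 4 comparisons or the interaction. For diet in females, Lbp, Slpi, Nos2, Duoxa2 and Duox2 passed the unadjusted threshold upward among 25 tested, against 3.67% of all genes in either direction. In the list 9 genes had higher and 16 lower values in HFD F, with a median log2 fold change of -0.09. Without the 4 HFD F libraries rich in squamous markers none of these 5 passed, in a fit with 2 HFD F animals. Duox2 missed only the log2 fold change minimum of 0.4 there (edgeR unadjusted p = 0.02). The log2 fold change of Lbp went from 0.62 to 0.06, of Slpi from 2.52 to 1.15, of Nos2 from 1.4 to 0.28, of Duoxa2 from 0.46 to 0.30 and of Duox2 from 0.40 to 0.39. Slpi, an antiprotease that squamous epithelium also makes, was 5.23 ± 5.77 TPM in HFD F and 0.748 ± 0.582 TPM in CD F (SD, n = 6).
For sex on high-fat diet Duox2 alone passed it among 27 tested, upward in females, and in the interaction Lbp passed it upward and Gsdmc3 downward among 28, against 3.09% and 5.18% of all genes. For diet in males Gsdmc3 alone passed the unadjusted threshold among 23 tested, against 2.9% of all genes, with a log2 fold change of 0.41 (SE 0.12, edgeR adjusted p = 0.704), and 0.48 (SE 0.13) without the 2 squamous-rich HFD M libraries. Saa1 also passed there (0.42, SE 0.15). Without the 6 libraries, with 2 HFD F and 4 HFD M animals, 5 of 26 list genes passed the unadjusted threshold upward in HFD F vs HFD M, against 2.14% of all genes. They were Ccl20 (1.11), Lpo (1.31), Lyz2 (0.75), Zg16 (0.63) and Duox2 (0.55), each with an edgeR adjusted p of 1. With estradiol Lyz1 and Saa1 passed it upward and Reg4 and Nox1 downward among 23 tested, against 5.87% of all genes. Nox1, an epithelial NADPH oxidase, had 2.47 ± 1.01 TPM in HFD+E2 M and 5.33 ± 2.34 TPM in HFD M (SD, n = 6), with a log2 fold change of -0.85 (SE 0.25, edgeR adjusted p = 0.454). Without the 2 squamous-rich HFD M libraries Saa1, Reg4 and Nox1 passed the unadjusted threshold and Lyz1 did not. The log2 fold change of Lyz1 was 0.69 (SE 0.31) with all libraries and 0.55 (SE 0.32) without those 2.

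**Figure D5:**
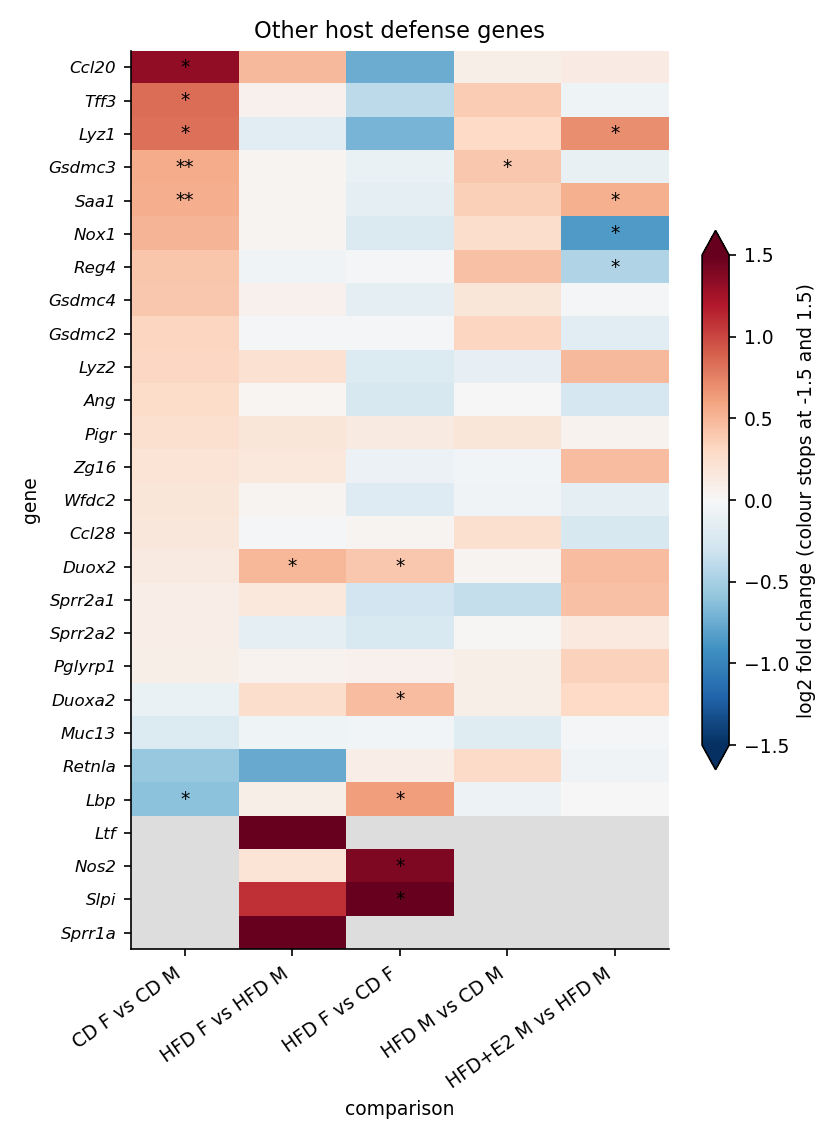
Log2 fold change of host defense genes outside the 10, 1 row per gene and 1 column per comparison, red for higher and blue for lower in the first-named group, grey where the gene was not tested. A pair of asterisks marks the adjusted and 1 asterisk the unadjusted threshold, and the pair appears only for Gsdmc3 and Saa1 in CD F vs CD M.

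No gene of the pathways that regulate these peptides passed the adjusted threshold in any comparison. Interleukin-22, which acts through STAT3, and interleukin-17 induce Reg3 genes and Lcn2. Type 2 cytokines from tuft cell circuits induce Retnlb and Ang4. Il22, Il13 and Il25 were at 0 in every library. None of the 22 genes of the interleukin-22, interleukin-17 and STAT3 axis, 13 to 15 of which were tested, passed the adjusted threshold in any comparison or the interaction.
In that axis Il18 was the most abundant gene (73.0 TPM), and it was lower in HFD F than in CD F past the unadjusted threshold only, with a log2 fold change of -0.43 (SE 0.13, edgeR adjusted p = 0.527), and -0.13 (SE 0.16) without the 4 squamous-rich HFD F libraries.
No gene of the type 2 and tuft cell axis (19 genes, led by Il13ra1 at 39.5 TPM) or of the microbial sensors and their adaptors (28 genes, led by Casp1 at 73.1 TPM) passed the adjusted threshold either. Of 9 type 2 and tuft cell genes tested in CD F vs CD M, the receptor Il17rb was past the unadjusted threshold upward and Il13ra2 downward, against 9.15% of all genes. In HFD M vs CD M Il17rb alone of 9 was past it, against 2.9%, with a log2 fold change of 0.56 (SE 0.24), and 0.56 (SE 0.28) without the 2 squamous-rich libraries, where it did not pass. Of 26 sensor genes tested in each comparison, Cd14, a co-receptor for lipopolysaccharide, was past it upward in females on each diet, and Nod2 in HFD F vs CD F and in the interaction. With estradiol Nlrp6 and Ticam1 were past it upward.
The sensor calls, at 1 or 2 of 26, were near or under the shares of all genes (9.15% in CD F vs CD M, 3.09% in HFD F vs HFD M, 3.67% in HFD F vs CD F and 5.87% with estradiol). Without the squamous-rich libraries Cd14 in HFD F vs HFD M did not pass (log2 fold change 0.26, SE 0.28). Nod2 in HFD F vs CD F (-0.008, SE 0.47) and Ticam1 with estradiol (0.34, SE 0.20) did not pass either, while Nlrp6 did (0.47, SE 0.17). Calls at the unadjusted threshold that appeared only without those libraries were Socs3, Ripk2 and Il13ra2 downward and Trpm5 upward in HFD F vs CD F, Socs3 and Il13ra2 downward in HFD F vs HFD M, and Avil downward in HFD M vs CD M. In these fits, with 2 HFD F and 4 HFD M animals, the shares of all genes past it were 2.36%, 2.14% and 3.64%, in that order.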

How the data were processed

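Raw read counts per gene and TPM values were used as deposited. The authors sequenced ribosomal RNA-depleted stranded libraries (paired reads of 51 bases), mapped them to GRCm38 (mm10) with STAR, obtained gene counts with featureCounts and TPM with StringTie, and used DESeq2; bcl2fastq 2.19.1.403 and Trim Galore are named in the submitters' processing notes, and the strand setting of the counting is not given in the sources used here. No replicates were pooled, and each animal is 1 library. Library totals, which set the precision of low counts, are given above.

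Counts were tested over all genes of each comparison with edgeR 4.0.16 in R 4.3.3 (filterByExpr, TMM, robust quasi-likelihood F-test, Benjamini-Hochberg adjustment). A call needed an adjusted p under 0.05 with a log2 fold change over 0.4. The unadjusted threshold replaced adjusted by unadjusted p. The study gives the same 2 limits, but does not say whether its p was adjusted. Log2 CPM used TMM factors and a prior count of 2. Genes under the filter were compared by two-sided exact permutation tests over 924 splits. Alternatives were DESeq2 1.42.0, its size factors in edgeR, other filters, all 30 libraries in 1 fit, a replicate block, marker scores as covariates, limma 3.58.1 on log2(TPM + 0.1) and log2(TPM + 1), and each library left out. The 10 genes, the gene lists and the tests were chosen with earlier results of these data known.

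Named genes were the 10 members in every comparison, the genes of each pathway list past the adjusted threshold with the list's most abundant gene, and the 3 genes most like a member by Pearson r. Genes past the unadjusted threshold only were named after their values were seen. Results of a few genes under these rules are not reported here. The scripts were tested on simulated counts.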

Additional observations from a re-analysis of the deposited data

Results flagged for a closer look

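Among 40 sets of 6 TPM values (10 genes by 5 groups, without the 10 sets in which all 6 were equal), 8 had an animal whose gap to its nearest neighbour was large against the range of its group by Dixon's test at 95%. Chance marks about 1 in 20 sets of continuous values, but this rate does not apply to 4 of the 8, where the other 5 animals were at 0 TPM and any value above 0 is marked. For 2610528A11Rik, CD F replicate 5 was low at 325.2 TPM, with the other 5 between 369.2 and 390.4 TPM. For Sprr2a3, HFD+E2 M replicate 1 was high at 475.7 TPM, with the others between 168.4 and 279.8 TPM. For Lcn2, HFD M replicate 2 was high at 3.119 TPM (23 counts), with the others up to 1.036 TPM. The remaining 5 rest on few counts. Reg3b in HFD M replicate 1 was 1.608 TPM (10 counts) with the others at 0. Ang4 was 0.5877 TPM (4 counts) in CD F replicate 5 and 0.1619 TPM (1 count) in CD M replicate 4, where replicates 2 and 6 also had 1 count but 0 TPM. CD M replicate 1 was the only library of its group with Reg3g (0.4104 TPM, 6 counts) or Gpr15 (0.1316 TPM, 2 counts) above 0 TPM.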

How the results depend on the processing

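Of 501 recomputed fold changes of single members, 497 kept their side of the adjusted threshold without reversing a call, and 34 recomputed values without a call changed sign. The difference of 2610528A11Rik in CD F vs CD M held in all 24 alternatives, with log2 fold changes from 0.51 to 0.78 and adjusted p up to 0.0294. The Sprr2a3 value in that comparison changed sign to -0.063 with the smooth muscle score (edgeR adjusted p = 0.882), where no difference was called. The members past the adjusted threshold in CD F vs CD M numbered 2 with the replicate block, between 1 and 2 with 1 library left out (2 without CD M replicate 1), and 1 in HFD M vs CD M with DESeq2. Past the unadjusted threshold in CD F vs CD M the number of members lay between 1 and 3 over 12 settings, 4 of which moved it. With the smooth muscle score Sprr2a3 was lost, and with no filter Lcn2 was among the members past this threshold. With 1 library left out the number lay between 1 and 2 (1 without CD F replicate 1 or 2 or CD M replicate 3 or 4, where Sprr2a3 was lost). Ang4 was the 1 member past the unadjusted threshold in HFD F vs CD F with no filter and with limma at either pseudocount, and made 2 members with 2610528A11Rik in HFD M vs CD M with no filter. In HFD+E2 M vs HFD M there was 1 member with no filter (Reg3b), with the replicate block and with the smooth muscle score (Sprr2a3), and between 0 and 1 with 1 library left out (1, Sprr2a3, without HFD M replicate 6 or HFD+E2 M replicate 4). With no filter, 4 unadjusted differences appeared among the genes under the filter, from at most 24 counts in a group, except Lcn2 in CD F vs CD M with 33 and 66. The cause of these changes was not tested. Replicate numbers were not taken to pair the animals: in no comparison was the correlation of same-numbered animals' deviations over 0.1 in all 6 pairs (range -0.218 to 0.468), with 5 of 6 pairs over 0.1 in CD F vs CD M and in HFD M vs CD M, 3 in HFD F vs CD F and in HFD+E2 M vs HFD M, and 2 in HFD F vs HFD M. The replicate block changed no other call. The marker score of all epithelium, the libraries left out for squamous markers and the summed Sprr2a copies were chosen after seeing the data. Depth limits every statement on the 7 low genes.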
